A study of Mus musculus with 6 samples.

Results

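Plasminogen activators, the serpins that restrain proteases, and the tissue inhibitors of metalloproteinases (Timps) were compared between T1 and T2 tumor cells. The 9 genes were Plau, Plaur, Plat, Serpine2, Serpinb2, Serpinb5, Timp1, Timp2 and Timp3, taken by symbol from the 24125 gene names used, and all 9 were found. RNA was sequenced from 3 replicates of T1 cells (4T1A in the labels, low GFP, adherent, epithelial morphology, aggressive in mice) and 3 replicates of T2 cells (4T1NA, round, loosely adherent, less aggressive). Both populations descend from 4T1GFP cells, a BALB/c mammary carcinoma line tagged with GFP, which had been injected into the mammary fat pad. They were separated by their GFP level from a culture of sorted GFP negative, CD140a positive cells of the primary tumor that GFP positive tumor cells had outgrown. Neither population received a treatment, and both were grown in DMEM/F-12 with serum. The labels call the replicates independent but do not say what was repeated. The study's methods state, for its experiments in general, at least 3 biological replicates. The p-values set the difference between populations against the spread between these samples, which may be technical. The comparison rests on cells from that culture, and the parental 4T1GFP cells are not analysed here.

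The libraries held 18133227 to 20839686 reads on genes. Levels are normalized counts, the reads of a gene scaled by the size factor of the library. All 6 libraries had Krt8 and Krt18, keratins of simple epithelium, with T1 and T2 means of 22067 and 19195 normalized counts for Krt8 and of 23275 and 21658 for Krt18. Epcam and Cdh1, which mark epithelial cells, were high in T1 cells and low in T2 cells, with T1 and T2 means of 3141 and 34.7 normalized counts for Epcam and of 14748 and 465 for Cdh1. Krt14, Krt19 and Cldn4 averaged 3795, 3177 and 5530 in T1 cells and 3.04, 2.91 and 5.29 in T2 cells. Krt5 had 0 reads, Cldn3 had 3 reads in T1 and 0 in T2 libraries, and Cldn7 averaged 16.1 and 2.30. These 10 epithelial markers summed to 72402 to 80736 normalized counts in T1 and 37495 to 43417 in T2 libraries. Of 12 fibroblast markers, 6 had no read in any library, and the summed level of the list was 8530 to 10111 normalized counts in T1 and 1276 to 1974 in T2 libraries, nearly all of it Fbln2. Of the defining fibroblast collagens, Col3a1 had 0 reads and Col1a1 had 14.8 to 27.9 normalized counts in T1 and at most 0.979 in T2 libraries. Col1a2 had 4.23 to 11.7 normalized counts in the T1 libraries and 0 reads in the T2 libraries. Postn, another marker of the list, had 126, 146 and 162 normalized counts in the T1 replicates and 0 reads in the T2 replicates. The 12 leukocyte markers summed to 61.4 to 95.6 in T1 and 95.6 to 130.0 in T2 libraries, most of it Cd68, while Tyrobp and Adgre1 had 0 reads. Ptprc had 5, 6 and 3 reads and S100a8 1, 3 and 3 reads in the T2 replicates, and neither had a T1 read. Coro1a had 5 reads over the T1 and 18 over the T2 libraries, and Csf1r had 20 and 2. The 8 endothelial markers summed to at most 15.9 normalized counts in a library. The part of such cells in the results was not tested.

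Plau encodes urokinase (uPA) and Plat encodes tissue plasminogen activator (tPA), the proteases that convert the zymogen plasminogen to plasmin. Plaur encodes the urokinase receptor, which holds uPA at the cell surface, so that plasmin forms where a cell touches its matrix. Serpins are suicide inhibitors that trap serine proteases. Serpine2 (protease nexin-1) inhibits thrombin and both activators, Serpinb2 (plasminogen activator inhibitor type 2) inhibits uPA, and Serpinb5 (maspin) belongs to the same fold but is not known as a protease inhibitor and is best known as a product of mammary epithelium that is often lost in breast tumors. Timps bind and block matrix metalloproteinases, a family of matrix degrading enzymes that plasmin can help to activate. Timp2 also takes part in the activation of proMMP2 by MMP14, and Timp3 stays bound to the matrix.

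Of the 9 genes, 2 were higher in T1 cells (Serpinb5 and Serpine2), 3 were lower (Plaur, Timp1 and Timp2), Plau and Plat did not pass the test, and Serpinb2 and Timp3 had too few reads to be compared. The test was limma on log2(normalized count + 1) over the 11512 genes whose mean reached 10 normalized counts, and a gene was called at an adjusted p-value (Benjamini-Hochberg over these genes) under 0.01. Over the genes tested, 25.1% were called higher and 24.4% lower in T1 cells. The 5 genes called among the 7 tested therefore stand beside a background of 49.5% called in either direction. Past the further filter of a log2 fold change above 2 were Serpinb5 and Serpine2, both higher in T1 cells, against 4.17% of the genes tested in that direction and 4.2% in the other. The median log2 fold change (T1 minus T2) of the 7 genes was -0.05, and that of all genes tested was -0.0055. In 5 of the 7 genes the T1 and T2 libraries did not overlap, as in 68.1% of the genes tested. In bulk RNA, fewer cells with a transcript and less of it per cell cannot be told apart.

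**Figure D1:**
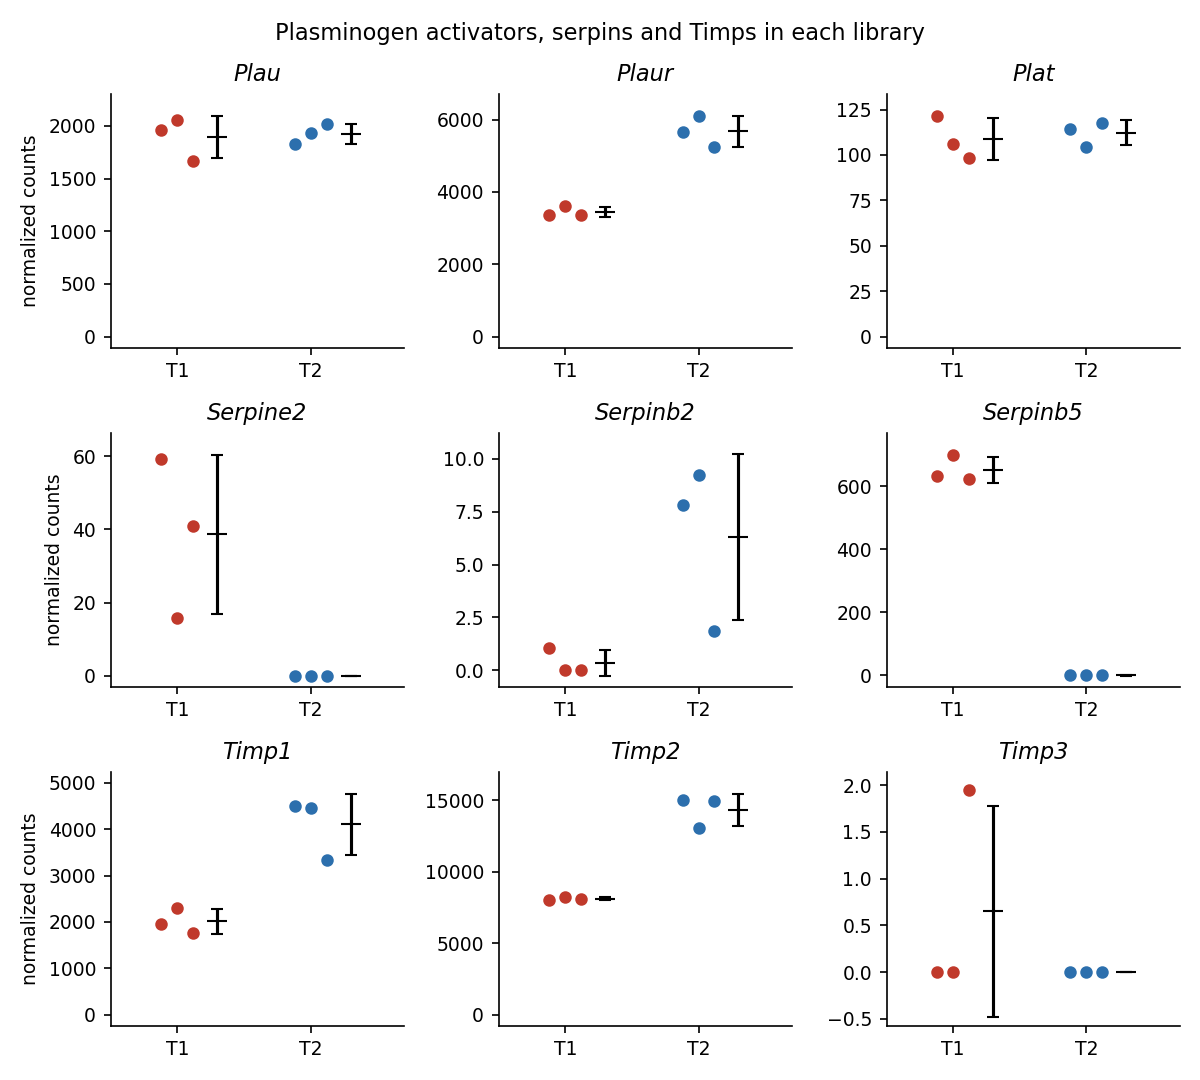
Normalized counts (vertical axes, linear, each with its own range) of the 9 genes in the 3 T1 libraries (red) and the 3 T2 libraries (blue), in the order of replicates 1, 2 and 3. Black bars give the mean and SD (n = 3). Serpinb5 and Serpine2 lie at or near 0 in T2 cells, Plaur, Timp1 and Timp2 lie higher in T2 cells, and Plau and Plat overlap.

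**Figure D2:**
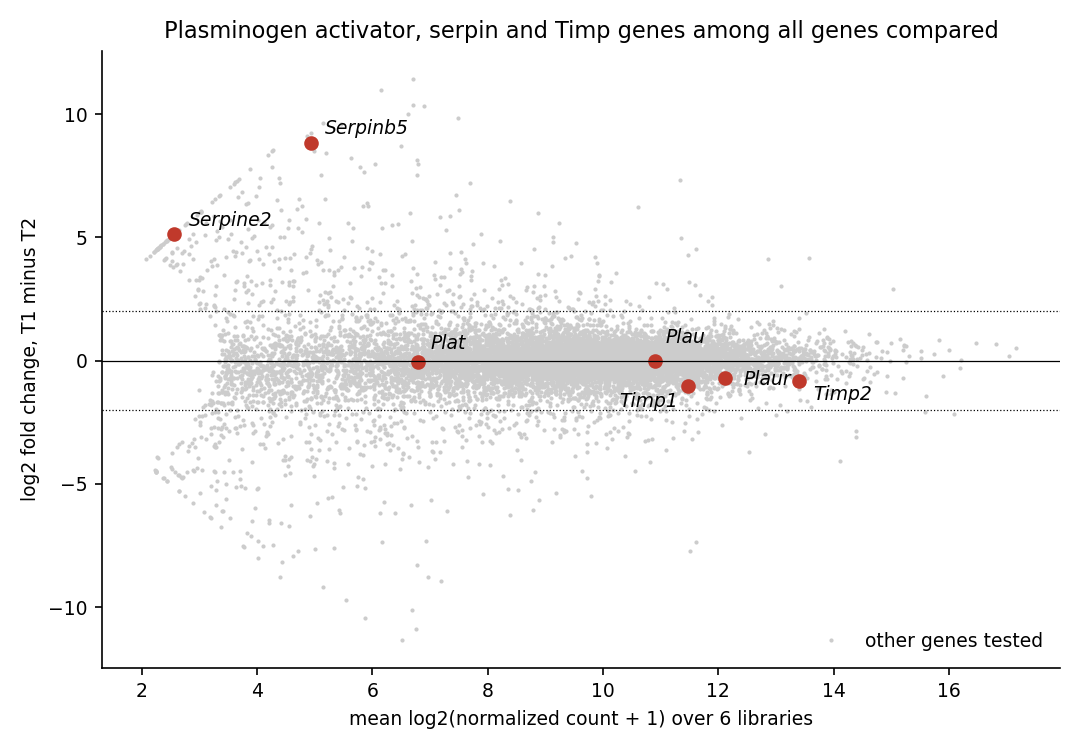
Log2 fold change (vertical axis, T1 minus T2) against the mean log2(normalized count + 1) over the 6 libraries (horizontal axis) for the 11512 genes tested (grey), with the 7 tested genes of the group in red. Dotted lines mark log2 fold changes of 2 and -2. Only Serpinb5 and Serpine2 of the 7 lie beyond them, while Plaur, Timp1 and Timp2 lie between them at -0.72, -1.02 and -0.82, among abundant genes.

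Neither activator passed the test. Plau (chromosome 14 of mm10, 20836660 to 20843385, plus strand) had 1964, 2053 and 1668 normalized counts in T1 replicates 1, 2 and 3 and 1825, 1932 and 2013 in the T2 replicates. The populations overlapped, with T1 replicate 3 lowest and T1 replicate 2 highest of the 6 libraries. The T1 mean was 1895 ± 202 and the T2 mean 1923 ± 94.0 (SD, n = 3 each). The log2 fold change was -0.03 (standard error 0.09, 95% interval -0.24 to 0.18, adjusted p = 0.827, limma). A difference within that interval is compatible with these libraries, and the interval is not a limit of detection.

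Plat (chromosome 8, 22757727 to 22782844, plus strand) was far less abundant. It had 122, 106 and 98.6 normalized counts in the T1 replicates and 115, 104 and 118 in the T2 replicates. These values also overlapped, and the log2 fold change was -0.05 (standard error 0.17, 95% interval -0.42 to 0.32, adjusted p = 0.814, limma). Per kilobase of exon, Plau took 97.9% ± 0.194 of the summed level of the activators in T1 and 97.8% ± 0.158 in T2 libraries (SD, n = 3 each). The difference of 0.033 percentage points was within the spread between replicates (exact permutation test, two-sided, p = 0.8, where 0.1 is the smallest p that 3 against 3 allow). Scaled by the longest coding transcript, the Plau share was 94.9% ± 0.447 in T1 and 94.9% ± 0.364 in T2 libraries (SD, n = 3 each).

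The urokinase receptor was lower in T1 cells. Plaur (chromosome 7, 24462484 to 24475968, plus strand) had 3375, 3605 and 3354 normalized counts in the T1 replicates and 5658, 6111 and 5257 in the T2 replicates. Every T1 library lay below every T2 library. The means were 3445 ± 139 and 5675 ± 428 (SD, n = 3 each), and the log2 fold change was -0.72 (standard error 0.08, adjusted p = 2.29e-05, limma), a level 1.65-fold higher in T2 cells. Per kilobase of exon, Plaur was above Plau in each library, with means of 1316 against 801 normalized counts per kilobase in T1 cells and 2169 against 813 in T2 cells.

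Timp1 and Timp2, the abundant Timps, were also lower in T1 cells. Timp1 (chromosome X, 20870166 to 20874735, plus strand) had 1962, 2307 and 1759 normalized counts in the T1 replicates and 4505, 4467 and 3336 in the T2 replicates. T2 replicate 3 was the lowest of its population but lay above all T1 libraries. The log2 fold change was -1.02 (standard error 0.13, adjusted p = 7.57e-05, limma), a level 2.03-fold higher in T2 cells. Timp1 lies inside the span of Syn1, a gene on the other strand with which it shares no exon and which had at most 8.46 normalized counts in a library.

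Timp2 (chromosome 11, 118301069 to 118355740, minus strand) had the most reads of the 9 genes. It had 7985, 8195 and 8108 normalized counts in the T1 replicates and 14990, 13039 and 14960 in the T2 replicates. The T1 libraries lay close together and all below the T2 libraries, and the log2 fold change was -0.82 (standard error 0.08, adjusted p = 7.24e-06, limma), a level 1.77-fold higher in T2 cells. Cep295nl, a gene annotated within the span of Timp2 on the same strand, shares no exon with it and was not analysed here.

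Timp3 (chromosome 10, 86300372 to 86349506, plus strand) was nearly undetected. It had 2 reads in T1 replicate 3 and 0 reads in the other libraries, so no fold change is given. The 0 reads over the 3 T2 libraries allow up to 3 reads among all their reads on genes, and this limit, like the intervals on reads below, covers counting error only. Timp3 shares 1733 bases of exon with Syn3 on the other strand. Syn3 had 26.4 to 41.0 normalized counts in the 6 libraries, and as the strand setting of the counting is not given in the sources used here, reads of the shared stretch cannot be assigned to either gene.

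With the samples taken as unpaired, the balance between Timp1 and Timp2 did not differ beyond the spread between replicates. Per kilobase of exon, Timp1 took 51.9%, 55.3% and 48.8% of the summed Timp level in the T1 replicates and 56.9%, 60.0% and 49.5% in the T2 replicates. The means were 52.0% ± 3.25 and 55.5% ± 5.44 (SD, n = 3 each), and the libraries overlapped (exact permutation test, two-sided, p = 0.4, where 0.1 is the smallest p possible). Timp2 took the rest, 48.0% ± 3.25 and 44.5% ± 5.44. The Timp1 share differed by -3.49 percentage points (T1 minus T2). For each replicate number the T1 share lay below the T2 share, and the shares were not compared as pairs.

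The promoters of the 3 genes lower in T1 cells are shown here, as the 250 bases before the RefSeq start site in GRCm38.p6 (the build of mm10), because the transcripts moved in the same direction. RefSeq promoters were found for 7 of the 9 genes, and Plau and Plat had none in the table. Capitals mark matches to TGANTCA, the letters bound by the AP-1 factors (Fos and Jun), searched on both strands. The Plaur window lies on chr7:24462233-24462482 (plus strand), the Timp1 window on chrX:20869916-20870165 (plus strand) and the Timp2 window on chr11:118355412-118355661 (minus strand).
Plaur: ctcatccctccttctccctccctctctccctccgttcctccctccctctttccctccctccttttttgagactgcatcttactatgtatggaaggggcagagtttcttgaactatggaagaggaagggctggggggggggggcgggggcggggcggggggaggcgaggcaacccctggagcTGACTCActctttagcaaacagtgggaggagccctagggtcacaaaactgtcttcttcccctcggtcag
Timp1: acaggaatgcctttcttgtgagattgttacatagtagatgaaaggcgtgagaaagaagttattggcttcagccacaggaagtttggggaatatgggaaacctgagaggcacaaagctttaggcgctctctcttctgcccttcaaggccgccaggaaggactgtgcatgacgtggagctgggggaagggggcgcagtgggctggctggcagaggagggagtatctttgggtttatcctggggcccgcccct
Timp2: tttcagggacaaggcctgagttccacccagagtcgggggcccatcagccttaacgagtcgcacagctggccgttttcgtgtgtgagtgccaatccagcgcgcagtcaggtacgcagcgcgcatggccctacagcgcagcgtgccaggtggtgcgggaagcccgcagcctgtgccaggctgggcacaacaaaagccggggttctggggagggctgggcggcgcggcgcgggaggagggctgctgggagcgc
A match was present in the Plaur window, with its first base 69 bases before the start, and none was present in the Timp1 and Timp2 windows. Of 32536 promoter windows of the same length, 6.73% held a match. The GC box GGGCGG was matched 3 times in the Plaur window and 1 time in each of the Timp windows, and 33.0% of all windows held at least 1 match. The TATA box letters TATAAA were in none of the 3 windows and in 12.3% of all windows. A match is a stretch of letters and was not tested as a binding site, and no match says only that these letters are not in the window.

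The serpins Serpinb5 and Serpine2 had the highest fold changes of the 7 genes compared. Serpinb5 (chromosome 1, 106861173 to 106883348, plus strand) had 632, 700 and 624 normalized counts in the T1 replicates. The T2 replicates had 0, 0 and 2 reads. All T1 libraries lay far above all T2 libraries, with a mean of 652 ± 42.1 normalized counts in T1 cells (SD, n = 3). The log2 fold change was 8.84 (standard error 0.40, adjusted p = 5.01e-08, limma). Serpinb5 reached the mean of 10 normalized counts needed for the test through its T1 reads alone. From 1989 reads in T1 and 2 reads in T2 libraries, the ratio of the levels was 1005, with a 95% counting interval (Clopper-Pearson) of 278 to 8300. Serpinb5 is among the genes that the study selected from these libraries as higher in T1 cells, so its direction is no independent evidence.

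Serpine2 (chromosome 1, 79794197 to 79861180, minus strand) was detected in T1 cells alone, at a low level. It had 59.3, 15.8 and 41.0 normalized counts in the T1 replicates, from 56, 17 and 42 reads, and 0 reads in each T2 library. The T1 libraries varied widely, with T1 replicate 2 lowest, yet each lay above all T2 libraries. The log2 fold change was 5.13 (standard error 0.54, adjusted p = 1.83e-05, limma). Against a floor of 3 reads over the 3 T2 libraries, the pooled T1 reads gave a level 38.7-fold higher. This ratio leaves out the spread between the T1 replicates and is not a lower limit.

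Serpinb2 (chromosome 1, 107511423 to 107535478, plus strand) had the opposite order at a very low level. It had 1, 0 and 0 reads in the T1 replicates and 8, 9 and 2 reads in the T2 replicates. Each T2 library lay above each T1 library, with T2 replicate 3 only just above (p = 0.1, two-sided exact permutation test, the lowest that 3 against 3 can give). From 19 reads in T2 and 1 read in T1 libraries, the ratio of the levels was 18.8, with a 95% counting interval (Clopper-Pearson) of 2.99 to 782. It was not compared in the main test because its mean was under 10 normalized counts. Without that filter its log2 fold change was -2.32 (adjusted p = 0.00533, limma). Serpinb2 shares 291 bases of exon with Serpinb10, which had 0 reads in every library.

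Serpinb5 and Serpinb2 belong to the same cluster of clade B serpins on chromosome 1, where Serpinb2 starts 650 kb after Serpinb5 and Serpinb8, a further clade B serpin, starts 729 kb after it. The 8 serpin genes between Serpinb5 and Serpinb2 in the annotation (Serpinb12, Serpinb13, Serpinb3a, Serpinb3d, Serpinb3b, Serpinb3c, Serpinb11 and Serpinb7) had 0 reads in every library. Serpinb8 had 0 reads in the T1 libraries and 12.7, 12.3 and 25.1 normalized counts in the T2 libraries. Its pooled T2 reads gave a level 17.2-fold above a floor of 3 reads over the T1 libraries, which leaves out the spread between replicates. One end of the cluster was thus expressed in T1 cells and the other, weakly, in T2 cells. The nearest coding gene before Serpinb5, Vps4b, was expressed in all libraries. Kdsr, the coding gene before Vps4b, had 576, 507 and 610 normalized counts in the T1 replicates and 1343, 1224 and 1359 in the T2 replicates.

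The promoters of Serpinb5 and Serpinb2 are shown because these genes of the cluster had most of their reads in opposite populations, Serpinb2 at a very low level. Capitals again mark TGANTCA on either strand. The Serpinb5 window lies on chr1:106860925-106861174 and the Serpinb2 window, for the first of its annotated starts, on chr1:107511173-107511422, both on the plus strand.
Serpinb5: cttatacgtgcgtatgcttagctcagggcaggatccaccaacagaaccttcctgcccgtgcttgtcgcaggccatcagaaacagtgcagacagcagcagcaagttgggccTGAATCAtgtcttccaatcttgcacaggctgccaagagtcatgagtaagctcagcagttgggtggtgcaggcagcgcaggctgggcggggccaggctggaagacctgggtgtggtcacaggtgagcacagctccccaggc
Serpinb2: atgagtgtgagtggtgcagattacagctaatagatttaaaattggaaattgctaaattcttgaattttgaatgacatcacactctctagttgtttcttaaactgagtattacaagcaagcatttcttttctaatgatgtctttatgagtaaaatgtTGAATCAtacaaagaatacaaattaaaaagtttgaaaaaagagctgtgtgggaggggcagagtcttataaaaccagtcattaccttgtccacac
Each window held 1 match, 140 bases before the start in Serpinb5 and 94 bases before the start in Serpinb2. Over all windows 6.73% held a match, and the windows of Serpine2 and Timp3, not shown, held none. The TATA box letters TATAAA were in the Serpinb2 window and not in the Serpinb5 window. The GC box GGGCGG was in the Serpinb5 window and not in the Serpinb2 window. Of all windows, 12.3% held the TATA letters and 33.0% the GC box. The GC content of the windows was 58.8% for Serpinb5 and 32.4% for Serpinb2.

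**Figure D3:**
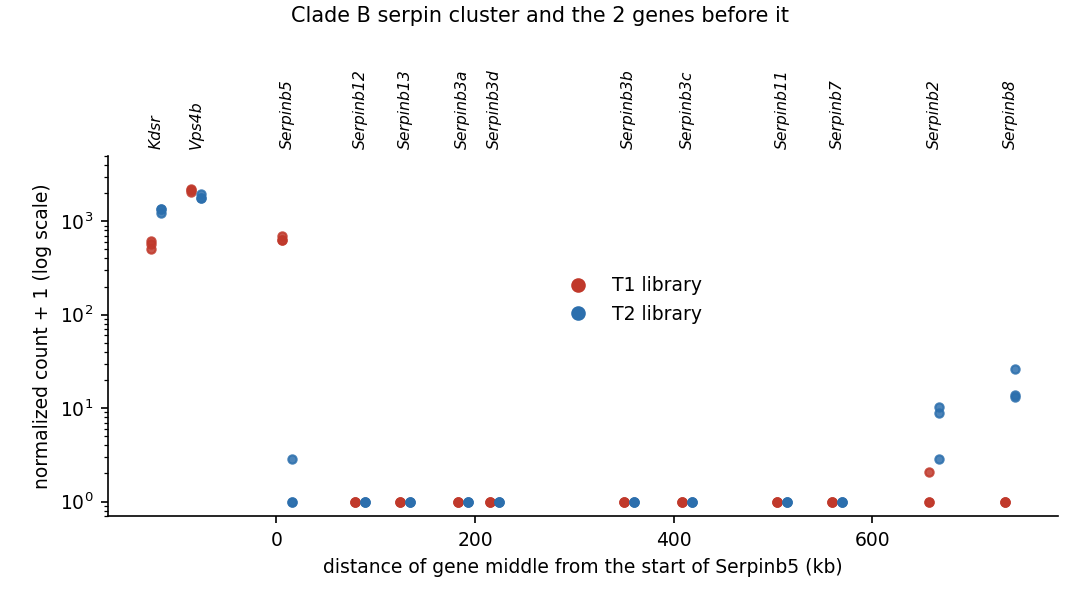
Normalized count + 1 (vertical axis, log scale) of the genes from Kdsr to Serpinb8 in each T1 (red) and T2 (blue) library, placed by the distance of the gene's middle from the start of Serpinb5 (horizontal axis, kb). Points at 1 have no read. Serpinb5 is high in T1 cells, the 8 serpins from Serpinb12 to Serpinb7 are at 0, and Serpinb2 and Serpinb8 rise above 0 in T2 cells.

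The genes whose pattern was most like that of Serpinb5 and Serpine2 were found by the distance between log2(normalized count + 1) values, centred on each gene's mean, over the 6 libraries. For Serpinb5 these were Esrp1 (distance 0.575), Fam83a (0.753) and Unc13b (0.912), against a median distance of 10.9 over the genes tested. Esrp1, an epithelial splicing regulator, had 674, 697 and 687 normalized counts in the T1 replicates and at most 0.928 in a T2 library. For Serpine2 they were Tgm1 (0.967), Plscr4 (1.01) and Bst1 (1.03), against a median of 6.44, each of which also had 0 reads in the T2 libraries. Tgm1 encodes a transglutaminase of stratified epithelium, and Bst1 a surface enzyme that hydrolyses NAD. The distance mainly follows the difference between T1 and T2, and the median distance rises with the fold change of the gene itself. Near genes are thus those with a like fold change, and shared control was not tested.

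Levels of different genes can be compared only per length. Per kilobase of exon, the order in T1 cells was Timp1 (2263 ± 312 normalized counts per kilobase, SD, n = 3), Timp2 (2078 ± 27.0), Plaur (1316 ± 53.2), Plau (801 ± 85.2), Serpinb5 (237 ± 15.3), Plat (17.4 ± 1.89) and Serpine2 (4.67 ± 2.63), with Serpinb2 and Timp3 at or under 0.15. In T2 cells it was Timp1 (4620 ± 748), Timp2 (3678 ± 287), Plaur (2169 ± 163), Plau (813 ± 39.7), Plat (18.0 ± 1.12) and Serpinb2 (2.68 ± 1.67), with Serpinb5 at 0.225 and Serpine2 and Timp3 at 0. Timp1 and Timp2 overlapped between libraries in both populations, so their order is not settled, and so did Serpinb2 and Timp3 in T1 cells. The other neighbors in the order did not overlap, apart from Serpinb5, Serpine2 and Timp3 in T2 cells, where Serpinb5 had 2 reads in 1 library and the others had none. With the length of the longest coding transcript in place of all exons, Plaur reached 2287 in T1 and 3768 in T2 cells, level with Timp2 at 2183 and 3863. Timp1 was above 97.0% of the genes tested in T1 cells and above 98.9% in T2 cells on this scale, while Plat was above 13.5% and 13.1%.

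**Figure D4:**
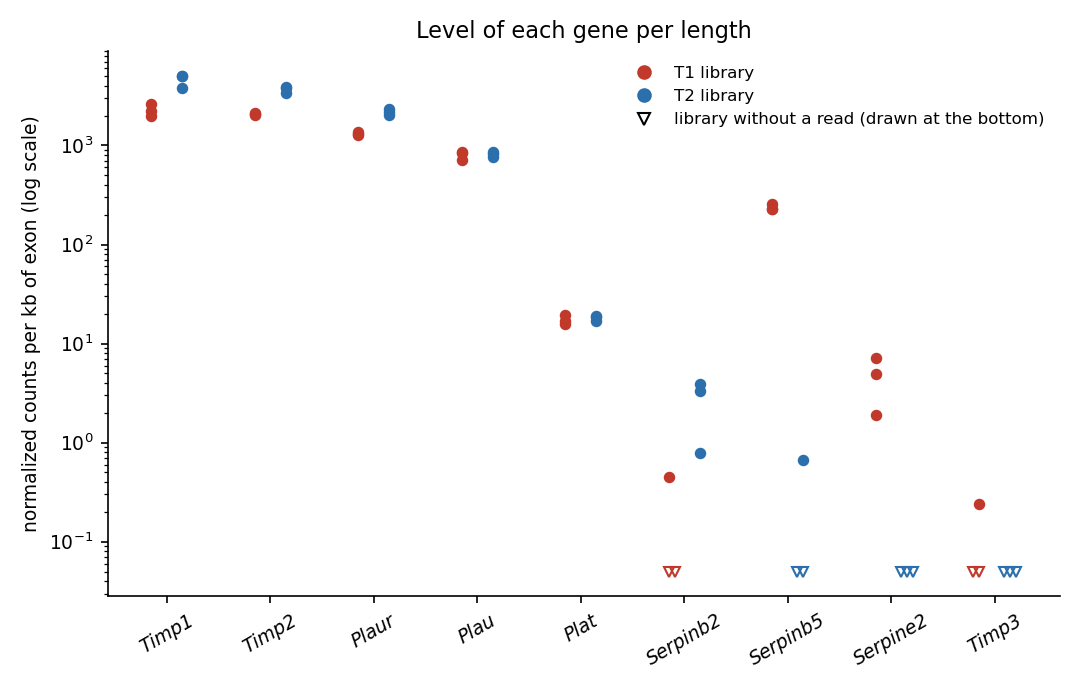
Normalized counts per kilobase of exon (vertical axis, log scale) of the 9 genes, ordered by their mean in T2 cells, in each T1 (red) and T2 (blue) library. Triangles at the bottom are libraries without a read. The order from Timp1 to Plat is shared, and Serpinb5, Serpine2 and Serpinb2 change places between the populations.

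The other genes of the plasminogen and Timp systems were counted from lists, of which 64 of 65 symbols were in the table, Eno1 being the exception. Of these, 18 had no read in any library and 30 had enough reads to be compared. In T1 cells 10 were higher and 12 lower at an adjusted p-value under 0.01 (limma), and 8 did not pass, beside the 25.1% called higher and 24.4% called lower over all genes tested. Past the fold filter as well were 3 higher and 2 lower genes, where 4.17% and 4.2% of the genes tested were.

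Plg, which encodes plasminogen, the substrate of uPA and tPA, and Vtn, which encodes vitronectin, a ligand of the urokinase receptor, had 0 reads in every library.

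Of the 3 plasminogen receptors compared, the annexin Anxa2 and its partner S100a10 were lower in T1 cells and Plgrkt was not called. Among all genes tested, 24.4% were called lower. The mean of Anxa2 was 18937 ± 736 normalized counts in T1 against 34354 ± 2016 in T2 libraries (SD, n = 3 each), and its log2 fold change was -0.86. The mean of S100a10 was 10754 ± 1487 against 25746 ± 3057 (SD, n = 3 each), and its log2 fold change was -1.26. Anxa2, S100a10 and the genes Lrp1, Prss8, Spint1, Spint2, Serpinb9, Reck, Adam10 and Adam17 were chosen for naming with their values in view.

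Of 9 compared partners and clearance receptors of the urokinase receptor, 2 were higher and 6 lower in T1 cells. Over all genes tested, 25.1% were called higher and 24.4% lower. Mrc2, which encodes a collagen uptake receptor that associates with the urokinase receptor, had 3.72 to 9.52 normalized counts in the T1 replicates and 155, 128 and 210 in the T2 replicates. No library of T1 came near those of T2, and the log2 fold change was -4.69 (adjusted p = 1.82e-06, limma). Lrp1, the receptor that clears uPA bound to its inhibitors, averaged 2892 ± 684 in T1 against 7606 ± 693 in T2 libraries (SD, n = 3 each), with a log2 fold change of -1.42.

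All 6 compared genes of the list of membrane serine proteases and Kunitz inhibitors were called, 4 higher and 2 lower in T1 cells, against 49.5% of the genes tested called in either direction. St14 encodes matriptase, an epithelial surface protease that can activate the uPA precursor. It had 3595, 3672 and 4331 normalized counts in the T1 replicates and 145, 137 and 142 in the T2 replicates, which did not overlap, a log2 fold change of 4.76 (adjusted p = 5.11e-10, limma). Prss22, a serine protease, had a log2 fold change of 2.14 (adjusted p = 1.08e-05, limma) and Prss8 (prostasin), a surface protease, of 1.62. Tfpi, an inhibitor of the tissue factor pathway of clotting, had 25.4, 64.2 and 19.5 in the T1 replicates and 345, 359 and 412 in the T2 replicates, a log2 fold change of -3.50 (adjusted p = 1.43e-05, limma). The matriptase inhibitors moved in opposite directions, with a log2 fold change of -0.70 for Spint1 and of 0.54 for Spint2.

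Of 24 other clade B serpins 11 had no read. Of the 4 compared, 2 were higher in T1 cells, beside 25.1% of all genes tested. Serpinb9, the granzyme B inhibitor, had a log2 fold change of 1.14. Serpinb9b had 14.8, 32.6 and 33.2 normalized counts in the T1 replicates and 1.96, 4.10 and 0 in the T2 replicates, a log2 fold change of 3.41 (adjusted p = 0.00075, limma), but it belongs to a family of similar mouse copies among which the counting may have split reads.

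Of 5 compared genes that Timps act on or resemble, 2 were higher and 2 lower in T1 cells. The shares over all genes tested were 25.1% and 24.4%. Mmp9, a gelatinase that binds Timp1, had 1088, 650 and 1171 normalized counts in the T1 replicates and 168, 347 and 369 in the T2 replicates, a log2 fold change of 1.75 (adjusted p = 0.0005, limma). Mmp14, the membrane protease of the Timp2 and proMMP2 complex, had 6286, 6942 and 7749 in the T1 replicates and 2860, 2831 and 2740 in the T2 replicates, a log2 fold change of 1.31 (adjusted p = 5.97e-07, limma). Both lay higher in every T1 library, where Timp1 and Timp2 lay lower. Adam10, a membrane protease that sheds surface proteins, lay lower in every T1 library (log2 fold change -0.86, adjusted p = 8.29e-06, limma), and Adam17, another such protease, was not called (log2 fold change -0.014). Mmp2 itself had 8 reads over the T1 and 2 reads over the T2 libraries and was not compared. Reck, a membrane anchored metalloprotease inhibitor, had a log2 fold change of -1.47, the direction of Timp1 and Timp2.

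**Figure D5:**
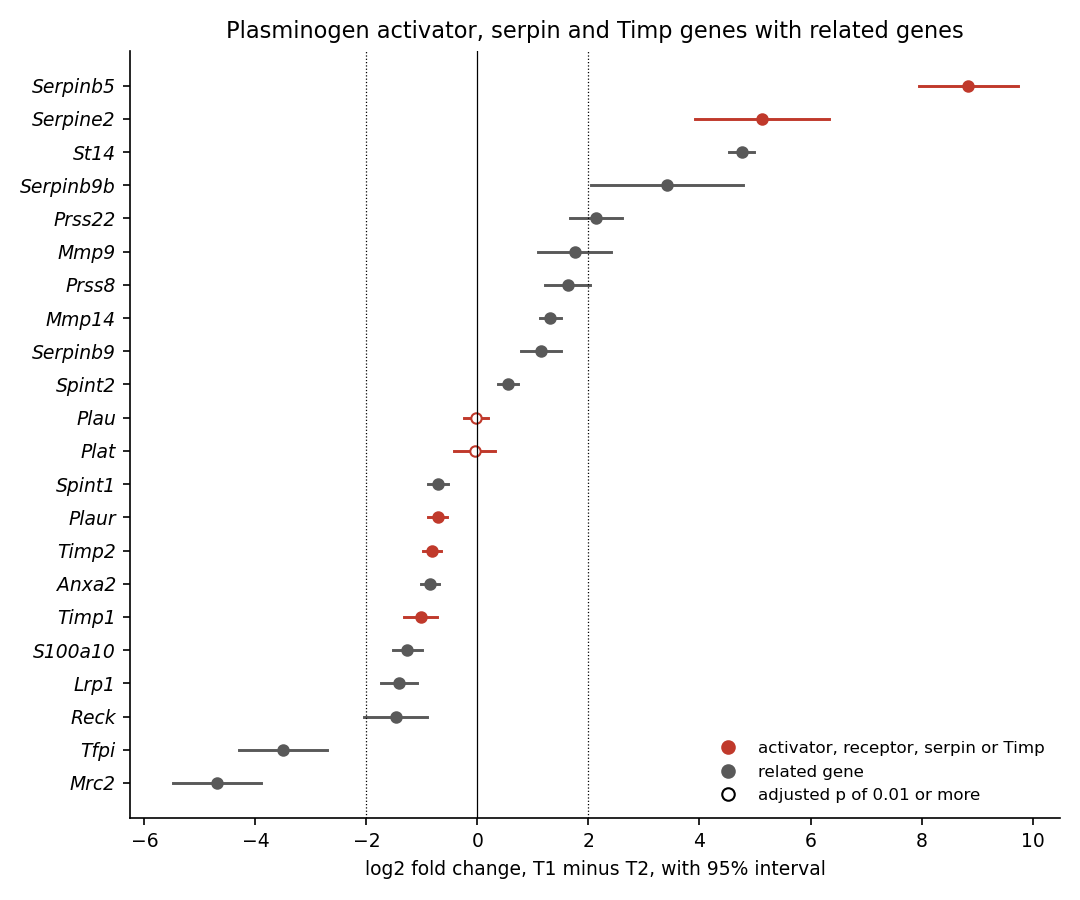
Log2 fold change (horizontal axis, T1 minus T2) with its 95% interval (lines) for the 7 tested genes of the group (red) and related genes (grey), in order. The related genes are those compared and named in the text, except Plgrkt, Adam10 and Adam17, which are not drawn. Filled points passed an adjusted p-value of 0.01 and open points did not, and dotted lines mark 2 and -2. Serpinb5 is the highest at 8.84 and Mrc2 the lowest at -4.69.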

How the data were processed

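Normalized counts of 6 samples, 3 of T1 and 3 of T2 cells, were used as deposited. Per the study's methods, adapters were trimmed by the authors (Trimmomatic), TopHat2 served for alignment to mm10, HTSeq for counting and DESeq2 for scaling by median of ratios. The deposited signal is thus a gene's reads over the size factor of the sample. Versions, annotation and strand setting are not given in the sources used here. After multiplication by the size factor, 100% of the values were whole reads within 0.01. Libraries held 18133227 to 20839686 reads, which limits the precision of genes with few reads, and replicates differed by more than sampling noise (chi-square over degrees of freedom 8.25 to 26.1). The file held 24129 entries, of which 27 were dates in place of names, and 2 dates that named more than 1 gene were left out.

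Genes whose mean reached 10 normalized counts were compared with limma 3.58.1 under R 4.3.3. Genes low in a population, such as Serpinb5, Serpine2, Serpinb9b and Mrc2, reached that mean through the other population alone. The fit was run on log2(normalized count + 1), a variance trend included, and Benjamini-Hochberg adjustment. Fold changes on this scale understate those of low genes. Thresholds followed the study (adjusted p under 0.01, log2 fold change above 2). Alternatives were pseudocounts of 0.5 and 5, filters of none and 50, TMM and quantile scaling, no variance trend, edgeR 4.0.16 and DESeq2 1.42.0 on the reads, the replicate number as a term, a threshold of 0.05, other lengths, and each replicate left out. The tests were tested on simulated data. The genes changed there were well expressed, so genes near 0 in a population were not covered. Positions and exon lengths came from GENCODE M21 (mm10), promoters from RefSeq (GRCm38.p6). Named were the 9 genes, listed genes past both thresholds, genes fixed by their role, the 3 nearest in pattern and genes overlapping a member. A listed gene is not reported here. The members and lists were chosen with earlier results of these data known. Figures were drawn with matplotlib 3.10.9.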

Additional observations from a re-analysis of the deposited data

How the results depend on the processing

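Counts of calls within 1.5 times the count reported were taken as held. Those of the other listed genes ran from 9 to 12 higher and 11 to 14 lower in T1 cells, and from 2 to 4 in each direction past both thresholds. The counts that moved further did so where a filter removed or added a gene. When the mean had to reach 50 normalized counts, Serpine2 was no longer compared, which left 1 gene higher in T1 cells at either threshold. Without the filter, Serpinb2 was compared and 1 gene was lower past both thresholds, and among the other listed genes 4 were, Serpinb8 and Vldlr, neither with a T1 read, having entered. The sign of genes that were not called turned when replicates were left out. Plau ran from -0.086 to 0.063 on the log2 scale, above 0 without T1 replicate 3 and without T2 replicate 3 (0.0075), and Plat ran from -0.13 to 0.018, above 0 without T1 replicate 3. The Plau share of the activators turned as well, to -0.075 percentage points without T1 replicate 2 and -0.046 without T2 replicate 1. The log2 fold change of Serpine2 ran from 2.98 with a pseudocount of 5 to 8.29 in edgeR and that of Serpinb5 from 6.88 with a pseudocount of 5 to 9.97 in DESeq2, and both stayed past the threshold wherever they were compared. The difference in the Timp1 share ran from -6.49 to -1.20 percentage points over the replicates left out. Same-numbered samples of T1 and T2 had deviations correlated at 0.057, 0.172 and 0.104 over the genes tested. The other pairs ran from -0.152 (T1 replicate 3 with T2 replicate 2) to 0.072 (T1 replicate 3 with T2 replicate 1). The numbers were not taken to pair the samples, but whether they do is not settled. With the replicate block, 5780 genes were called in place of 5701, and 2 of the 9 genes were higher and 3 lower as before. With few reads, differences in Timp3 and small differences in Plat were not detectable at this depth.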
